A study of Mus musculus with 6 samples.

Results

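The baseline expression ranking of the wild-type mouse adrenal gland was read from 3 of the 6 arrays of the series, those labelled as wild-type. The other 3 arrays, of mice lacking chromogranin A (Chga), were not used here. The 3 glands came from male wild-type mice of 12 weeks of age that had received no treatment named in the labels. The labels describe the mice only as the wild-type animals of an earlier study of the knockout, and the mouse strain is not given in the sources used here. Total RNA of the isolated gland was turned into biotin-labelled cRNA, and 1 sample was hybridised to each single-colour Affymetrix array. The series lists 3 mice per genotype, so each array was read as 1 animal. If several arrays shared an animal, the spread between them would be technical only. The genes were ordered by the mean of log2(signal + 16) over the 3 arrays, where the signal is the linear brightness of a probe set, a group of short probes for 1 transcript. Of 12422 probe sets that are not controls, 10833 had a single gene symbol, and the brightest of each gene was kept, which gave 8251 genes.

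The adrenal gland holds a pair of endocrine organs. Its cortex makes steroid hormones from cholesterol: cholesterol enters mitochondria through Star, Cyp11a1 cuts its side chain with electrons passed on by ferredoxin (Fdx1), and Hsd3b and Cyp21a1 enzymes carry the product on towards corticosterone and aldosterone. Its medulla is made of chromaffin cells, which make adrenaline through Th, Ddc, dopamine beta-hydroxylase and Pnmt, and store it with granins and neuropeptides in dense-core granules. Rodent adrenals make corticosterone because their adult cortex has little of the enzyme Cyp17a1.

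The 3 arrays were on a common scale. After trimming 2% of probe sets at either end, all had a mean signal of 2499.6, and the median probe set lay between 969.5 and 1092.8. Across genes, which are not independent replicates, the log2 values of array pairs correlated with Pearson coefficients of 0.951 to 0.963, and 85.8% to 89.6% of genes lay within 2-fold between a pair of arrays. A probe set's brightness depends on its probes as well as on the mRNA, so the order below is an order of signals and not of mRNA amounts. No detection calls were used, so a low signal is not evidence of absence. Every SD given here is over 3 arrays (n = 3) and rests on 2 degrees of freedom. In RNA of a whole gland, fewer cells of a type and less RNA per cell cannot be told apart.

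Genes of steroid synthesis and of translation led the ranking. Fdx1, the ferredoxin that feeds electrons to mitochondrial steroid enzymes, was the brightest of the 8251 genes, with signals of 102524, 128096 and 109662 on arrays 1, 2 and 3. Probe sets without a single symbol were not ranked. They were 12.8% of all probe sets that are not controls, but 40 of the 100 brightest. The highest signal of any such non-control probe set, named or not, was 110803, 134820 and 110001, above Fdx1 on each array. The ribosomal protein gene Rpl41 followed with a mean signal of 110822 ± 17545 (SD), and the elongation factor gene Eef1a1 with 100941 ± 7553. Hsd3b1 and Cyp21a1 took ranks 4 and 5. Wdr92 and Gnas, which are on none of the lists, stood at ranks 6 and 8. Among the 30 brightest genes, 7 belonged to the cortex lists, 1 to the medulla lists and 11 to the housekeeping lists. The brightest 100 held 10 of the 62 measured cortex genes, 4 of the 62 measured medulla genes and 38 of the 225 measured housekeeping genes, where 1.21% of all genes fall by construction. With the dimmest probe set of each gene in place of the brightest, 5 cortex and 2 medulla genes were there, and 2 medulla genes also with the mean of a gene's probe sets or without the probe sets that can read several transcripts. The brightest 1000, which are 12.1% of all genes, held 26 cortex, 10 medulla and 137 housekeeping genes.

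**Figure D1:**
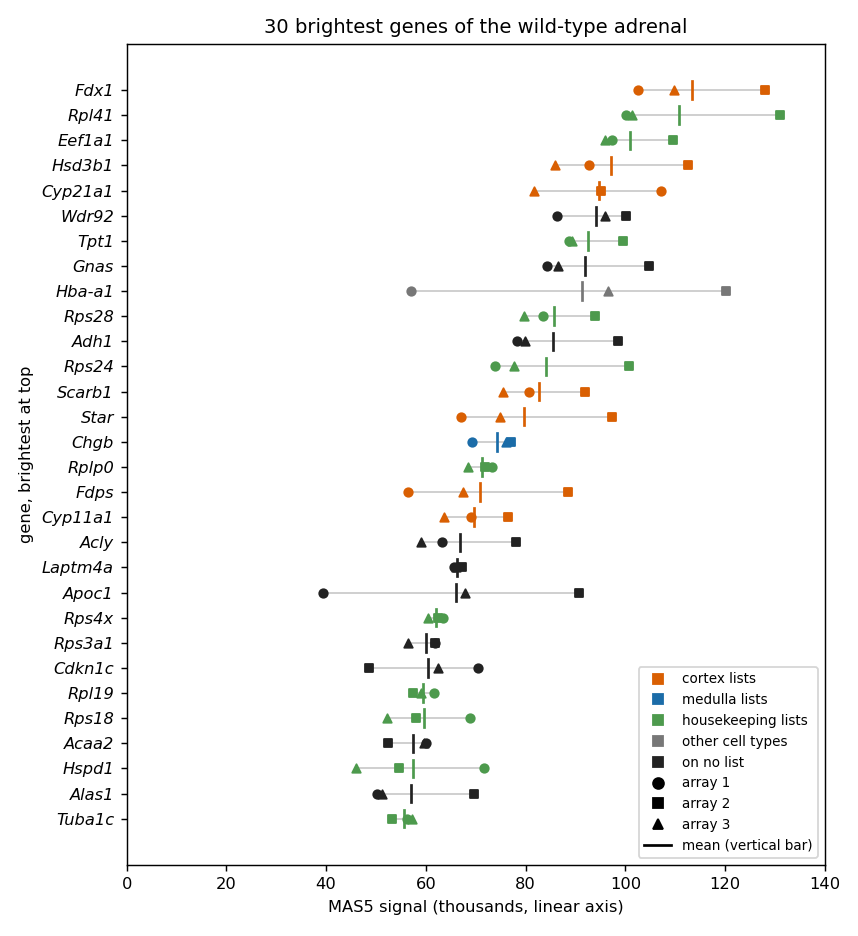
The MAS5 signal of the 30 brightest genes is plotted in units of 1000 on a linear axis, with 1 symbol per array and a vertical bar at the arithmetic mean of the 3. Colours give the gene list. Fdx1 is at the top, and Hba-a1 and Apoc1 have the widest spread, with array 1 lowest in both.

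The order at the top was not resolved by 3 arrays. For all 29 neighbouring pairs among the 30 brightest genes, the difference of the mean log2 values was smaller than the larger SD of the pair. In 2 of these pairs, the same gene was brighter on all 3 arrays. Membership was steadier than order: 22 genes were among the brightest 30 on every array, 78 among the brightest 100 and 842 among the brightest 1000. The mean signal fell from 113427 at rank 1 to 32235 at rank 100 and 7516 at rank 1000, and the median over all genes was 1502. The brightest 100 genes carried 16.3% to 17.8% of the summed signal of all genes on an array.

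Of 12 measured genes of steroid synthesis, 6 were among the brightest 100 and 8 among the brightest 1000, and the median member was brighter than 96.7% of genes. Hsd3b1, which makes progesterone from pregnenolone, gave 92787, 112557 and 85978. Cyp21a1, the 21-hydroxylase of progesterone, gave 107113, 95212 and 81601. Star, which moves cholesterol to the inner mitochondrial membrane, gave 67033, 97225 and 74784 at rank 14. Cyp11a1, the side-chain cleavage enzyme, gave 68966, 76533 and 63721 at rank 18, and Tspo, a protein of the outer mitochondrial membrane that binds cholesterol, gave 45239, 49663 and 44691 at rank 48. Array 2 was highest for Fdx1, Hsd3b1, Star, Cyp11a1 and Tspo, and array 1 for Cyp21a1. Of all 12 members, 5 were highest on array 2, against 41.4% of all genes and 26.5% of the brightest 1000. Tspo had the smallest SD of the 6 among the brightest 100, 0.08 on the log2 scale.

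The other members were dimmer. Cyb5a, a cytochrome b5 that assists P450 enzymes, had a mean of 13209 at rank 492, and the dehydrogenase genes Hsd17b10 and Hsd17b4 stood at ranks 835 and 1089. Hsd3b6, the mouse 3-beta-hydroxysteroid dehydrogenase known from the outer cortex, gave 1808, 628 and 2994 at rank 4073. Its highest and lowest arrays differed by 4.76-fold. Its probe set is of the kind shared within a gene family, and Hsd3b1 is a near copy, so the split between the 2 genes is uncertain. Cyp17a1, the 17-alpha-hydroxylase, gave 750, 718 and 282, and 29.9% of genes were dimmer. Hsd11b2, which inactivates corticosterone, was the dimmest measured member with a mean of 133 ± 40.8 (SD). Cyp11b1, Cyp11b2, Akr1b7 and Fdxr had no probe set with a single symbol and were not analysed here.

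The regulators of the cortex stood high as well. Nr5a1 (steroidogenic factor 1), the nuclear receptor that defines steroid-making cells, gave 44277, 47254 and 40645 at rank 55, with an SD of 0.11. Prkar1a, the regulatory subunit that restrains protein kinase A, had a mean of 30659 at rank 112. The corticotropin receptor gene Mc2r gave 15349, 14021 and 15241 at rank 405, and Mrap, its accessory protein, gave 30087, 24005 and 22384 at rank 169. The SD was 0.07 for Mc2r and 0.22 for Mrap, where the median of their brightness decile was 0.15. Cited2, Inha, Gata6, Nr0b1 and Gata4 followed at ranks 1085, 1292, 1854, 2622 and 3116. Of these, Inha, the inhibin alpha chain, varied most, with 8386, 6798 and 3921. No regulator lay among the dimmest 40% of genes, and 9 were measured.

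Genes known from the outer zone of the cortex, the zona glomerulosa, were lower and less steady. The median of 8 measured members was brighter than 67.0% of genes. Their median SD was 0.59, against 0.19 for genes of like brightness, which is the median of the members' own decile medians. Dab2, an endocytic adaptor, led with 16511, 14125 and 12155, followed by the potassium channel gene Kcnk3 with 8541, 8629 and 9289. Wnt4, a signal needed for the zone, gave 3922, 6514 and 3183. Vsnl1, a calcium sensor, gave 5180, 1502 and 4317. The hedgehog ligand gene Shh had a mean of 2594 at rank 2971. The channel genes Cacna1h and Kcnj5 were at ranks 7582 and 7946, with mean signals of 112 and 64.3. The 3 measured genes of the X-zone, the inner layer of the young mouse cortex that regresses in males, were Pik3c2g at rank 1408, Nr2f2 at rank 3175 and Thrb at rank 4883.

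Of 14 measured genes of cholesterol uptake, storage and transport, 2 were among the brightest 100 and 6 among the brightest 1000, and the median member was brighter than 85.9% of genes. Scarb1, the receptor that takes cholesterol esters from HDL, gave 80723, 91980 and 75520 at rank 13. Apoe, an apolipoprotein that the adrenal cortex makes in large amounts, gave 26374, 56180 and 55390 at rank 57, and array 1 stood apart. The cholesterol exporter gene Abca1 had a mean of 14556 at rank 419. Scp2, Srebf1 and Npc2 followed at ranks 550, 657 and 665. Npc2, a lysosomal cholesterol carrier, had the smallest SD of the supply list, 0.04. Npc1, Plin2, Lipa, Lipe, Stard3, Abcg1 and Nr1h3 lay between ranks 1105 and 3760. Insig1, which holds back sterol regulation, was the dimmest of the 14, with 26.8, 57.0 and 13.8.

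Of 17 measured enzymes of cholesterol synthesis, 1 was among the brightest 100 and 6 among the brightest 1000. Fdps, which makes farnesyl diphosphate, gave 56499, 88589 and 67392 at rank 17. Dhcr7, the last step to cholesterol, gave 21510, 21615 and 20200. Hmgcs1, the synthase that makes HMG-CoA, gave 18024, 23897 and 19900. Idi1, an isomerase early in the pathway, gave 8069, 26524 and 24657, with array 1 far below the other two. Msmo1 and Sqle stood at ranks 370 and 604, and 10 further members lay between ranks 1035 and 3632. Ggps1, a branch enzyme towards geranylgeranylated proteins, was the dimmest with a mean of 636 at rank 5566.

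Sterol genes are classically switched on by SREBP factors at short sterol regulatory elements, and the stretch around such a letter string is shown for the 2 members of these lists that held it. The string searched was TCACCCCA on both strands of the 250 bases before each gene's start, and it occurs in 1.72% of the 6576 genes of the array with a RefSeq window. It was found in Hmgcs1, 1 of 14 matched synthesis genes, and in Apoe, 1 of 11 matched supply genes. Sequences are from RefSeq on the mouse assembly GRCm38.p6, 5′ to 3′ along the gene, with the string in capitals. Apoe was shown because it is among the brightest 100 genes, and Hmgcs1 was chosen after its values were seen.
Apoe, minus strand of chr7:19699354-19699438, string from position -213: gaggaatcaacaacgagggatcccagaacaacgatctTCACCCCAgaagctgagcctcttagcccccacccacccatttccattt
Hmgcs1, plus strand of chr13:119690174-119690261, string from position -137: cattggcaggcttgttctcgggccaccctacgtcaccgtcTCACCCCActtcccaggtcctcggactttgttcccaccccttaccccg
The string AAGGTCA, the core read by steroidogenic factor 1, was found in 0 of 5 matched steroid genes and in 3.85% of all matched genes. Of matched cholesterol synthesis genes, 2 of 14 held it (Dhcr7 and Hmgcs1), of supply genes 0 of 11 and of cortex regulators 0 of 4. Of the matched brightest 100 genes, 5 of 71 held it. A missing string says only that these letters are not in this window.

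In the medulla lists, the granule proteins led. Chgb (chromogranin B, a granule core protein) gave 69305, 77123 and 76133, which put it at rank 15 with an SD of 0.08. Chga gave 46719, 30213 and 35306 at rank 80. Cpe, the carboxypeptidase that trims prohormones, gave 37452, 38270 and 30727 at rank 89, and Scg2 (secretogranin II) gave 26755, 23108 and 19255 at rank 194. Pam, which amidates peptides, had a mean of 5856 at rank 1359 and an SD of 0.03. Pcsk1n, Scg5, Scg3 and Pcsk1 lay at ranks 2502, 3449, 5039 and 5661. Array 1 was highest for Chga, Scg2, Pcsk1n and Scg5, and array 3 was lowest in 6 of the 9 granin and processing genes, against 33.2% of all genes. The median log2 deviation from the gene's own mean was 0.19 on array 1 and -0.20 on array 3.

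Secretory genes of chromaffin cells are known for the cyclic AMP response element, and 3 promoter stretches that hold its letters are shown. The string TGACGTCA, which reads the same on both strands, occurred in 2.69% of the 6576 matched genes. It was found in 3 of 8 matched granin and processing genes (Chgb, Pcsk1 and Scg2), in Th among 7 matched catecholamine genes and in Sst among 6 matched peptide genes. Of the matched transcription factor and neuronal genes of chromaffin cells, 0 of 14 held it, and of the matched brightest 100 genes, 1 of 71. In the cortex regulators it was found in Prkar1a, 1 of 4 matched. These genes lie between rank 15 for Chgb and rank 6900 for Sst. Chgb is shown as a member of the brightest 100, and Scg2 and Th were chosen after their values were seen.
Chgb, plus strand of chr2:132781530-132781617, string from position -72: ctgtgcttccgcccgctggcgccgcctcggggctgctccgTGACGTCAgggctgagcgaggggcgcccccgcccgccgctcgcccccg
Scg2, minus strand of chr1:79440047-79440134, string from position -68: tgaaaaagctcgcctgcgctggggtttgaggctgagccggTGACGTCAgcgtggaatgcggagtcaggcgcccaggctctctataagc
Th, minus strand of chr7:142899996-142900080, string from position -45: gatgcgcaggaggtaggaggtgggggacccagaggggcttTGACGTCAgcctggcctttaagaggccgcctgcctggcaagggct

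Enzymes of adrenaline synthesis were spread over a wide range of signal. Pnmt, which turns noradrenaline into adrenaline, gave 49331, 37676 and 39401 at rank 61. Th, the rate-limiting tyrosine hydroxylase, gave 26293, 18716 and 21141 at rank 214. Array 1 was highest and array 2 lowest for both. A second Pnmt probe set gave 41207, 31298 and 25408, so that array 3 was lowest there. Cyb561, the granule cytochrome that supplies ascorbate electrons, gave 15847, 17612 and 16015 at rank 343, and Ddc gave 7234, 5118 and 6488 at rank 1251. The cofactor genes Qdpr, Gch1, Pts and Spr lay at ranks 649, 1993, 2452 and 3689, and Maoa, which breaks catecholamines down, at rank 2553. The noradrenaline transporter gene Slc6a2 was the dimmest of 10, with a mean of 513. Dbh, Slc18a1 and Slc18a2 were not analysed here.

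Among 7 measured peptide genes, 3 lay above the dimmest 40% of genes. Npy (neuropeptide Y) gave 27579, 14333 and 21583 at rank 250, with an SD of 0.48. Penk, the enkephalin precursor, gave 5451, 3964 and 6054 at rank 1603, and Gal (galanin) gave 2455, 5081 and 5039 at rank 2055. The ranked Penk probe set is of a kind that can read several transcripts, and its others had means of 309 and 43.0. A second Gal probe set had a mean of 732. Npy and Penk were lowest on array 2, and Gal on array 1. Sst, Tac1, Adcyap1 and Vip all had mean signals from 90.3 to 218, in the dimmest 40% of genes.

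Transcription factors and neuronal proteins of chromaffin cells were mostly dim, with 13 of 22 among the dimmest 40% of genes. Dlk1, a Notch-like protein found in chromaffin cells and in the outer cortex, led at rank 166, with 25961, 25638 and 25215 and an SD of 0.02. Tubb3, Uchl1 and Gata2 followed at ranks 1399, 1604 and 1982, then Hand1, Stmn2, Ncam1, Gata3 and Chrna7 at ranks 2230 to 4391. Phox2a, a factor that specifies noradrenergic cells, gave 905, 221 and 716, and the receptor gene Ret was lowest with a mean of 43.8. In the exocytosis list, Vamp2 and Napa led at ranks 1142 and 1268, and Snap25 and Stx1a had mean signals of 868 and 334. None of its 14 members was highest on array 3, where 27.6% of all genes were, and 8 were lowest there.

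**Figure D2:**
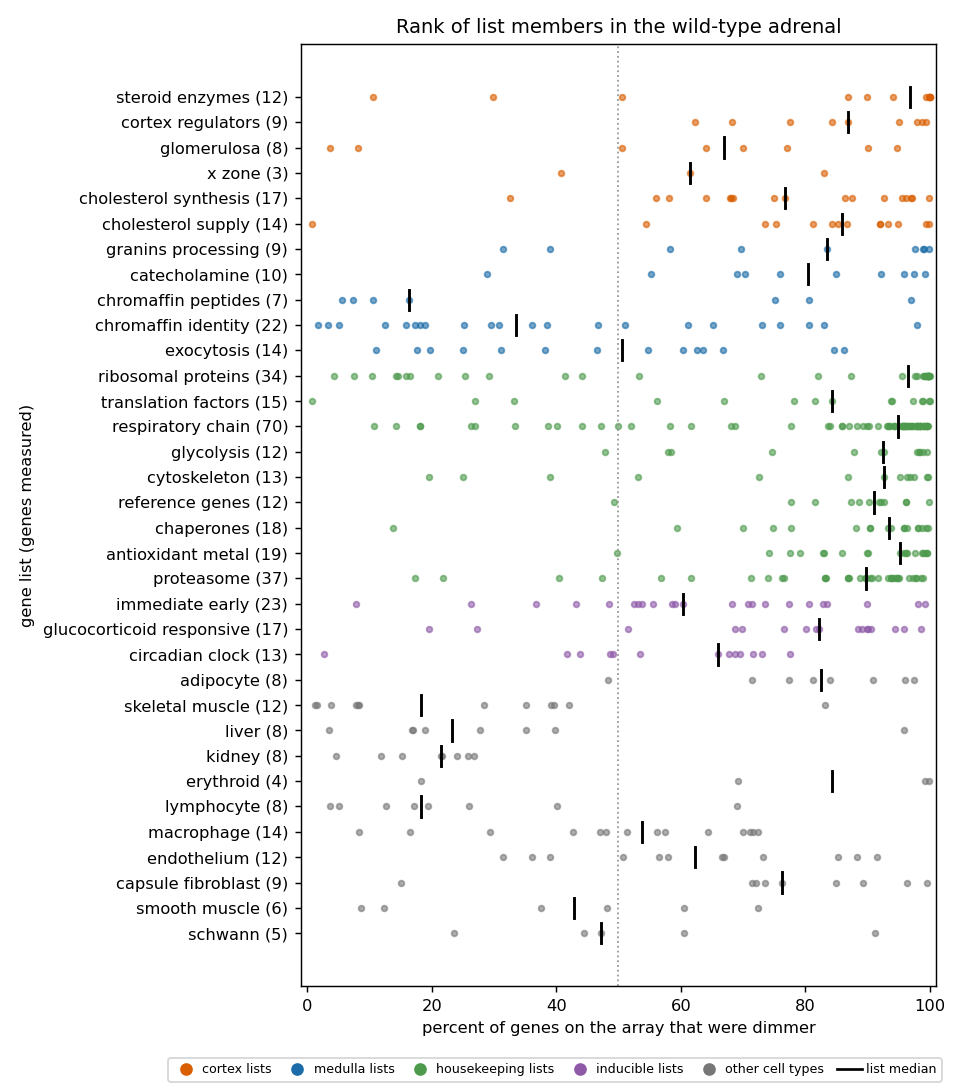
Each point is 1 gene, placed by the percent of the 8251 genes that were dimmer in the mean of the 3 arrays, with 1 row per gene list and a bar at the list median. Steroid enzymes, ribosomal proteins, antioxidant genes and the respiratory chain have medians near the right edge, while chromaffin peptides have the lowest median of all, next to the muscle, lymphocyte, kidney and liver lists.

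Housekeeping lists had a median member brighter than 93.2% of genes, against 85.8% for the cortex lists and 56.8% for the medulla lists. Of 34 ribosomal protein genes on the list, 15 were among the brightest 100, led by Rpl41, Rps28, Rps24, Rplp0, Rps4x and Rpl19. Rps28 gave 83543, 93828 and 79652, and Rps4x gave 63390, 62366 and 60429 with an SD of 0.04. Yet 10 of the 34 lay among the dimmest 40% of genes, down to Rps27l with a mean of 67.4. Rps3a1, at rank 23 with a mean of 60012, is a ribosomal protein gene that the list did not hold. On the list named translation factors, Eef1a1 and Tpt1 gave means of 100941 and 92493. Eef2 had a mean of 35484 at rank 88, and Eef1g was at rank 8187.

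Mitochondrial genes stood high as a group. Of 70 respiratory chain genes, 9 were among the brightest 100 and 47 among the brightest 1000. Cox6a1, a subunit of cytochrome oxidase, led with 57087, 52454 and 55326, and Ndufb5, Cyc1, Atp5a1, Uqcrq and Cox6c followed between ranks 40 and 68. Cyc1, the cytochrome c1 gene, had an SD of 0.03. The dimmest was Cox8a with a mean of 150. The mitochondrial chaperone genes Hspd1 and Hspe1 led the chaperones at ranks 28 and 49, and Hspd1 gave 71655, 54549 and 46065. Among antioxidant and metal genes, the ferritin gene Fth1 led with a mean of 54137, followed by the peroxiredoxin genes Prdx2 and Prdx3 at ranks 42 and 67, Gstm1 at rank 98 and Txn1 at rank 110.

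Among 12 measured glycolysis genes, Aldoa and Hk1 led at ranks 39 and 92. Aldoa, a glycolytic aldolase, gave 50510, 51491 and 49210, with an SD of 0.03, while the hexokinase gene Hk1 gave 50659, 26677 and 29843. Tpi1 had an SD of 0.02. Genes often used as references differed in steadiness. Rplp0, the brightest of 12 measured, had an SD of 0.05, Ywhaz of 0.08 and B2m of 0.23. The transferrin receptor gene Tfrc, named after its values were seen, had the largest SD of the list, 0.37, with 6702, 10902 and 9747. Actb gave 10226, 11462 and 11992 at rank 609, and Hprt had a mean of 10229 at rank 680. Tbp, the TATA-binding protein, was the dimmest reference with a mean of 1431. Of the cytoskeleton genes, Tuba1c and Actg1 led at ranks 30 and 35, and Myl6 was dimmest with a mean of 315. The median SD of the reference list was 0.13, against 0.15 for genes of like brightness.

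Bright genes were steadier. The median SD on the log2 scale was 0.54 in the dimmest decile of genes, highest at 0.66 in the next, and 0.15 in the brightest, with 0.26 over all genes. Among the brightest 100 genes, the highest array exceeded the lowest by a median of 1.19-fold, 90 genes stayed under 1.5-fold and 5 exceeded 2-fold. The cortex lists had a median SD of 0.25 where genes of like brightness had 0.16, the medulla lists 0.28 against 0.23, and the housekeeping lists 0.18 against 0.15. Ribosomal protein genes were the steadiest large list with 0.13.

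**Figure D3:**
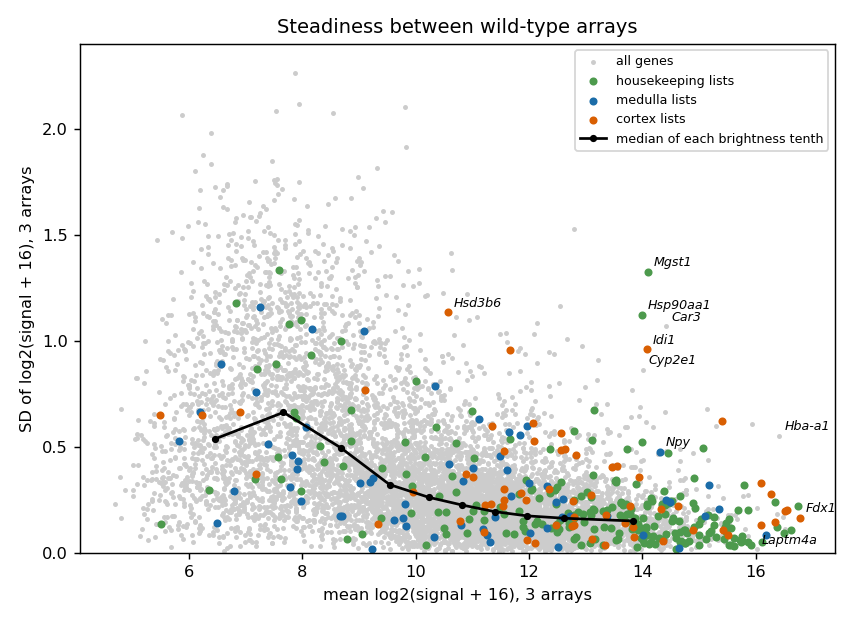
The SD over the 3 arrays is plotted against the mean of log2(signal + 16) for all genes in grey and the cortex, medulla and housekeeping lists in colour, with the median of each brightness decile as a black line. From its peak in the second decile the line falls to the right, and Mgst1, Hsp90aa1 and Idi1 stand far above it among bright genes.

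The 10 steadiest of the brightest 1000 genes were Hdlbp, Hgs, Ncoa4, Mrpl51, Pdcd6ip, G3bp1, Aplp2, Laptm4a, Ctsd and Nfe2l1. Hdlbp, an RNA-binding protein also known as vigilin, gave 13978, 14080 and 13961. Laptm4a, a protein of the lysosomal membrane, was the brightest of the 10, with 65665, 67178 and 65946 at rank 20. With 3 values per gene, the smallest SDs among 1000 genes are extremes of a wide distribution, and this order is a description.

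The 10 least steady of the brightest 1000 were Mgst1, Hsp90aa1, Car3, Hspa1a, Idi1, Plekhb2, Cyp2e1, Lpl, Pip4k2c and Dynlrb1. Mgst1, a microsomal glutathione transferase, gave 33681, 26349 and 6135, so that array 3 stood apart. Hsp90aa1, an inducible cytosolic chaperone, gave 6666, 25222 and 26152, with array 1 low. Hspa1a, the inducible HSP70, went the other way with 14387, 3772 and 8932. Cyp2e1, a P450 enzyme abundant in liver, gave 13477, 10341 and 32507. For some genes the spread depended on the probe set. Dimmer second probe sets had SDs of 0.11 for Pip4k2c and 0.10 for Dynlrb1, where the ranked ones had 0.78 and 0.77. That of Lpl had an SD of 0.63 and gave 3616, 6848 and 8381, lowest on array 1 like the ranked one. That of Hsp90aa1 had an SD of 1.01 at a mean of only 218. It gave 250, 327 and 76.1, so that array 3 and not array 1 was lowest there. Array 1 was lowest for 5 of these 10 genes, array 2 for 4 and array 3 for 1. Of all genes, 37.2%, 29.6% and 33.2% were lowest on arrays 1, 2 and 3. Of the brightest 1000, 25.9% were lowest on array 1 and 42.9% on array 2.

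Several lists moved together between the 3 glands. Of the 17 cholesterol synthesis genes, 15 were lowest on array 1, where 37.2% of all genes and 25.9% of the brightest 1000 were lowest, and 12 were highest on array 2, against 41.4% of all genes. The median log2 deviation of the list from each gene's mean was -0.30 on array 1, 0.23 on array 2 and near 0 on array 3. Apoc1, an apolipoprotein on none of the lists, gave 39455, 90677 and 67834, and Apoe had the same low array. Members of a list were measured on the same 3 arrays and are not replicates, so these counts carry no test.

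Haemoglobin genes and most fat genes were also lowest on array 1, where 37.2% of all genes and 25.9% of the brightest 1000 were lowest. Hba-a1, an alpha-globin of red blood cells, gave 57090, 120148 and 96552 at rank 9, and Hbb-b2, a beta-globin, gave 25190, 47320 and 54859 at rank 66. Both globin genes have near-identical copies, so their probe sets may read several of them. All 4 measured red cell genes were lowest on array 1, the others being Alas2 with 1408, 4515 and 4821 and Slc4a1 with 110, 194 and 633. Of 8 fat cell genes, 6 were lowest on array 1, 1 on array 2 and 1 on array 3. The list's median deviation was -0.49 on array 1 and 0.55 on array 3. Car3, a carbonic anhydrase abundant in fat, gave 10408, 22100 and 45855. Adipoq, the fat hormone adiponectin, gave 12806, 13911 and 27874, Lpl gave 5244, 9703 and 16186, and Ucp1, the uncoupler of brown fat, gave 2344, 10047 and 8955. The summed signal of the fat list was 43357, 73367 and 113147. The part of blood and fat RNA in the other differences between arrays was not tested.

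**Figure D4:**
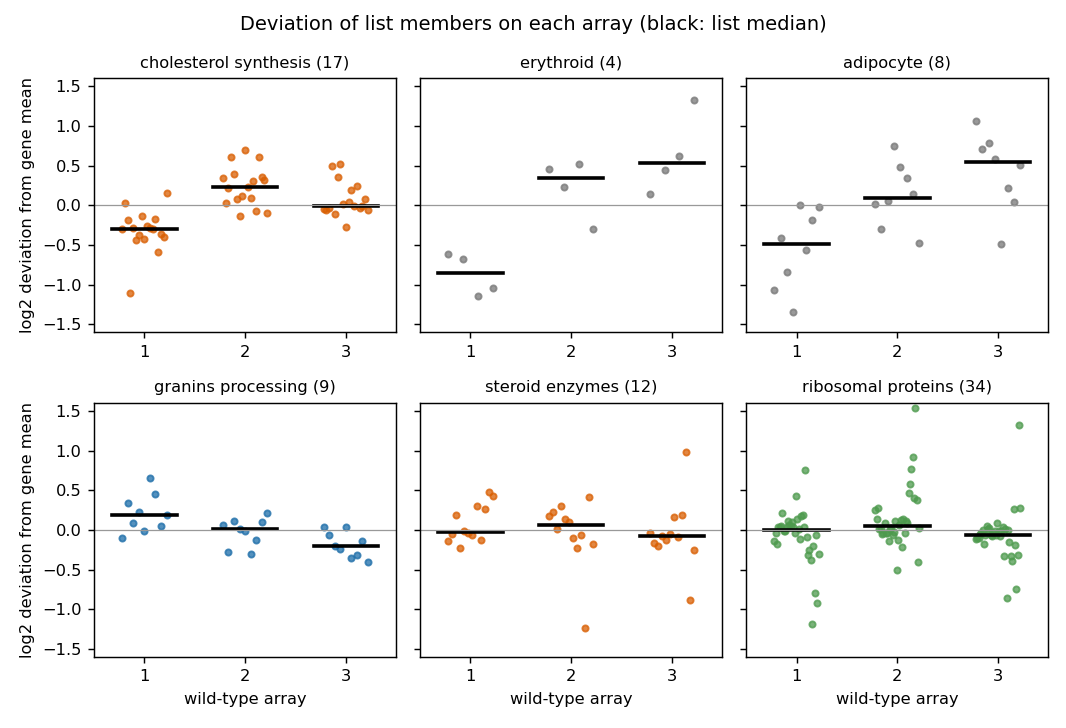
Each point is 1 gene's log2 deviation from its own mean over the 3 wild-type arrays, for 6 lists, with a black bar at the list median. The medians of cholesterol synthesis, erythroid and adipocyte genes lie low on array 1, while those of steroid enzymes and ribosomal proteins stay near 0 on every array.

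The 37 proteasome genes moved the other way. Of these, 26 were highest on array 1, against 31.0% of all genes and 47.2% of the brightest 1000, and 23 were lowest on array 2, against 29.6% and 42.9%. Psma3, Psmb4, Psmb5, Psma2, Psma6 and Psmb3 led at ranks 99 to 280. Psma6, a core particle subunit, gave 26700, 17972 and 20457. The list's median deviation was 0.13 on array 1 and -0.15 on array 2, which is smaller than for the blood and fat lists. Of 70 respiratory chain genes, 40 were highest on array 1, against the same 31.0% of all genes and 47.2% of the brightest 1000. The median deviation of that list on array 1 was 0.069, against 0.047 for the brightest 1000.

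Inducible genes covered most of the range of signal. Among 23 immediate-early genes, Jund led with 41004, 43208 and 32968 at rank 70. Nr4a1, an orphan receptor induced by corticotropin, gave 37435, 19167 and 24433 at rank 159, and Dusp1 followed at rank 830. Array 2 was lowest for 13 of the 23, against 29.6% of all genes and 42.9% of the brightest 1000. Of the glucocorticoid-responsive genes, Cebpb led with a mean of 29516 at rank 120. The metallothionein gene Mt2 gave 23100, 11193 and 16854, and Mt1 gave 12533, 5990 and 9059, so both were highest on array 1 and lowest on array 2. Clock genes were lower, from Tef at rank 1860 to Npas2 at rank 8026, and Per3 had an SD of 0.05.

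Markers of other tissues bear on what the isolated glands held. Kidney genes were all dim: 8 of 8 were among the dimmest 40%, with the brightest, Slc34a1, at a mean of 464. Liver genes were dim in 7 of 8, Alb having a mean of 740, and Cyp2e1 was the exception at rank 341. Skeletal muscle genes were dim in 10 of 12, the others being Pvalb at rank 1386 and Myh4 at rank 4783. Of 8 lymphocyte genes, 6 were dim, and Ighm led at rank 2556. Macrophage genes reached rank 2283 (C1qc), smooth muscle genes rank 2282 (Tagln) and Schwann cell genes rank 724 (Pmp22). Endothelial genes were led by Eng, Emcn and Cav1 at ranks 697, 971 and 1219. Capsule and fibroblast genes were brighter, with Sparc, a matrix protein, at 55965, 52456 and 44025 and Dcn at 17569, 16161 and 19427. Many of these genes are also made by other cells of the gland.

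The choice of probe set weighed on individual ranks. Of the 8251 genes, 2073 had several probe sets, and in 74.8% of these the brightest and the dimmest differed by more than 2-fold, with a median gap of 4.34-fold. Fdx1 had a second probe set with a mean of 153 against 113427. Nr5a1 had 5 probe sets with means from 26.6 to 44059, and Chgb a second with 449. Of the brightest 100 genes, 23 rested on probe sets of the kinds that can read several transcripts, against 12.5% of all genes. The control probe sets for actin would have taken ranks 7, 9 and 14 and those for Gapdh ranks 15, 19 and 27, while the named Actb probe set stood at rank 609.

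**Figure D5:**
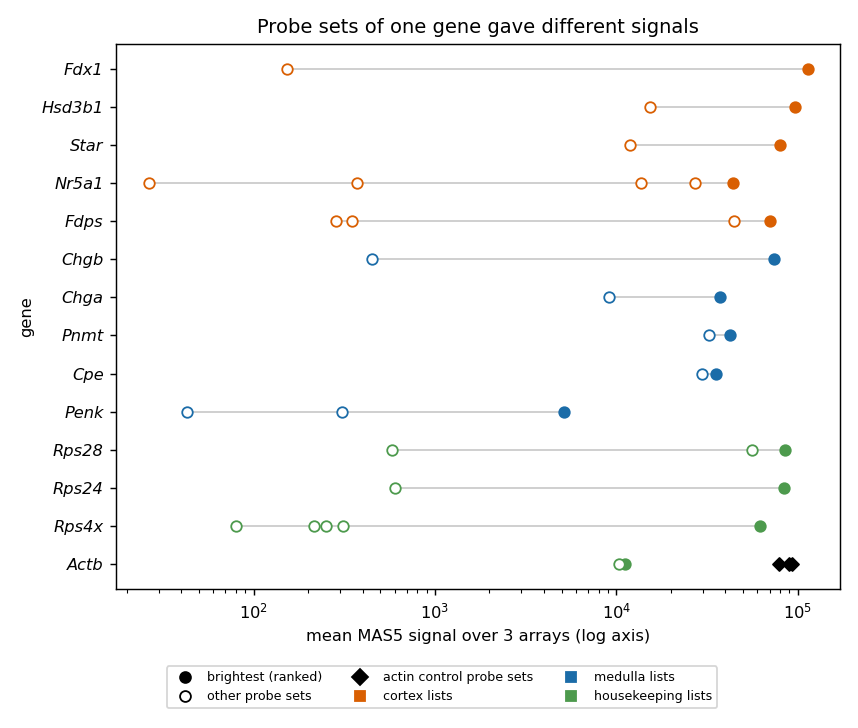
The mean signal over the 3 arrays is plotted on a log axis for every probe set of 14 genes, chosen after their values were seen. Filled points are the ranked probe sets, open points the others and diamonds the actin controls, and the open points of Fdx1, Chgb and Rps4x lie over 100 times lower than the filled ones.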

How the data were processed

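The authors deposited linear intensities, with 1 signal for every probe set, and the submitters' processing notes name MAS5 as their tool. Neither the MAS5 version nor the target of its scaling is stated in the labels. The values were used as deposited, without further normalization. Groups came from the sample titles. Probe sets for controls (66) were not ranked. Of the other 12422, 396 had several symbols and 1193 were not listed in the platform annotation, and these were not named. Symbols were updated through a RefSeq table of GRCm38.p6, in which 16 Entrez identifiers had no match. Signals were transformed as log2(signal + 16), and the probe set with the highest mean represented a gene. No group comparison and no test was made. The genes and the 34 gene lists were chosen with earlier results of these data known. Genes to name were drawn by rule from the 30 brightest, the brightest and dimmest members of each list with any cortex or medulla member, and the 10 smallest and 10 largest SDs among the 1000 brightest. Not all of these are named in the text. Ranks, SDs and list medians were tested on simulated data. Python 3.11.15, numpy 2.4.6, pandas 2.3.3 and matplotlib 3.10.9 were used.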

Additional observations from a re-analysis of the deposited data

How the results depend on the processing

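List medians of percent dimmer, SD and deviation, counts among the brightest 100 and the genes shared by the brightest 100 of all arrays were recomputed with other pseudocounts, scalings, probe set rules and a filter, and without each array. Other ways of averaging the arrays were run for the percent dimmer and the counts. Counts of highest and lowest arrays, the order of neighbours, array correlations, single genes' SDs and promoter strings were not recomputed. With 3 arrays, each SD is imprecise.

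The median percent of genes dimmer than a cortex gene was 85.1 with the mean of all probe sets of a gene, 82.5 with the dimmest probe set, 87.5 without family probe sets (those whose names end in f, r, i, s or g) and 78.1 among genes above the 40th percentile. For medulla genes it was 47.0, 44.2 and 50.4 under the same probe set rules in that order, and for housekeeping genes 91.2, 90.6, 91.4 and, above the 40th percentile, 90.8. With the dimmest probe set, 5 cortex genes were among the brightest 100, and 2 medulla genes were there under each of the 3 probe set rules. The median SD of cortex genes was 0.27 with the mean and 0.28 with the dimmest probe set. That of medulla genes was 0.32 with median scaling, 0.33 with the dimmest probe set, 0.32 without family probe sets and 0.24 above the 40th percentile. That of housekeeping genes was 0.21 with median scaling.

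Leaving out 1 array gave 85.0 to 86.0 for the median percent dimmer of cortex genes, 55.3 to 59.2 for medulla and 92.9 to 93.3 for housekeeping. The median SD then was 0.18 to 0.23 for cortex, 0.19 to 0.26 for medulla and 0.11 to 0.17 for housekeeping, and 83 to 87 genes were in the brightest 100 of both remaining arrays.

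The low medians of cholesterol synthesis, erythroid and adipocyte genes on array 1 kept their sign in every alternative run. They also stayed within 1 SD of the main value, where the SD is over the list's own 3 array medians (0.27, 0.75 and 0.52). This SD grows with the deviation itself, so staying within it is a weak check. Without array 2, the median of cholesterol synthesis was -0.15, and without array 3, that of erythroid genes was -0.50. Medians of 13 list and array combinations changed sign under some alternative, and the cause was not tested. On array 1, cholesterol supply was 0.034 with quantile normalization, 0.043 with median scaling, 0.030 with the mean and 0.076 with the dimmest probe set. Schwann genes there were -0.047 with the mean and -0.076 with the dimmest probe set. On array 2, cytoskeleton was 0.11 without family probe sets, reference genes -0.0098 with quantile normalization and -0.077 with median scaling, clock genes -0.023 and all cortex genes -0.0068 with median scaling, skeletal muscle -0.047 above the 40th percentile, and endothelium 0.0094 with the mean and 0.029 with the dimmest probe set. Without 1 array, steroid enzymes on array 3 were -0.094 to 0.020, glycolysis on array 3 -0.040 to 0.027, cytoskeleton on array 2 -0.040 to 0.053, cholesterol supply on array 1 0.0207 to 0.0228, and macrophage genes on array 1 -0.021 to 0.015. Reference genes were -0.0026 to 0.039 on array 1, -0.030 to 0.0026 on array 2 and -0.039 to 0.030 on array 3.

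No paired analysis was possible because only the wild-type group was used and no test was made.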

Other observations

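Of the brightest 100 genes, 44 were on none of the lists. The ones described here were chosen after their values were seen. Several act in fatty acid metabolism. Acly, which makes acetyl-CoA in the cytosol, gave 63161, 78123 and 58969 at rank 19. Scd2 (a fatty acid desaturase), Me1 (malic enzyme) and Elovl5 (a fatty acid elongase) stood at ranks 37, 43 and 46. These 3 were lowest on array 1, as were 25.9% of the brightest 1000 genes, while Acly was lowest on array 3. On the side of fatty acid breakdown, Acaa2 gave 60002, 52415 and 59690 at rank 27, and Cpt1a had a mean of 34972 at rank 90. Both were lowest on array 2, as were 42.9% of the brightest 1000 genes.

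Adh1, an alcohol dehydrogenase, gave 78207, 98625 and 79914 at rank 11. Alas1, the first enzyme of haem synthesis, gave 50114, 69655 and 51137 at rank 29. Cdkn1c, an imprinted inhibitor of the cell cycle, gave 70441, 48544 and 62532 at rank 24. Ly6d and Sprr1b, both known from epithelia, stood at ranks 47 and 63, and each had a second probe set with a mean of 186 for Ly6d and 28.0 for Sprr1b.

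The control probe set for the 5′ part of 18S ribosomal RNA gave 6829, 59558 and 1652, so array 2 stood apart. The control for its 3′ part gave 4198, 7560 and 4908. For the Gapdh controls, the 3′ signal divided by the 5′ signal was 0.794, 0.762 and 0.806.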
